A study of Mus musculus with 14 samples.

Results

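Messenger RNA of 7 complement genes was described in mouse blood leukocytes: C3, Cfp, Cfb and Serping1, which encode secreted components and a secreted inhibitor, and C3ar1, C5ar1 and C5ar2, which encode receptors of the cleavage fragments. Members were taken as the non-control probes whose transcript identifier maps to these symbols, which gave 7 genes of 20022 with a symbol on the array and 10 probes of 55681. A probe was tested when the scanner software marked it as well above background in 6 or more of the 14 mice; 24045 probes met this, among them 8 probes of 6 members, while C5ar1 was above background in 4 mice and was not tested.

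RNA came from 14 mice on 1 one-colour Cy3 Agilent array each. The 8 SS mice had met a hostile or adverse social environment in the third postnatal week, and 4 of them are labelled male and 4 female. The 6 SI mice had been socially isolated, as juveniles by the design text and in the third postnatal week by the growth protocol, and 4 of them are labelled male and 2 female. Cocaine at 5 mg/kg, called under-threshold in the labels, was given to every mouse during conditioning; extinction and withdrawal followed, and blood was drawn 24 hours after withdrawal. There was no unstressed and no cocaine-free group, and strain and genotype are not stated in those labels. Blood was taken into EDTA and red cells were lysed; the labels call the cells PBMC, yet neutrophil and platelet markers were well above background on all arrays (14 of 14 and 15 of 15 tested markers, respectively).

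Complement is a cascade of plasma proteins that coats microbes and damaged cells for uptake, pierces membranes and releases the anaphylatoxins C3a and C5a. C3 is its central component; factor B (Cfb) binds activated C3 to form the convertase of the alternative pathway, and properdin (Cfp) stabilises that convertase. Most plasma complement comes from the liver, whereas properdin is made largely by leukocytes and stored in neutrophil granules.

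The slides split the mice by sex label, labelled males on 1 and labelled females on the second, so slide and sex label cannot be told apart; on both slides SI and SS mice also lay in separate columns, so stress group and column cannot be told apart. Against these labels, the Y-linked transcripts Eif2s3y and Ddx3y exceeded background in 6 of 6 labelled females and in 0 of 8 labelled males. The words labelled male and labelled female therefore name the groups as deposited. Between 34.8% and 47.7% of an array's spots were well above background. Arrays of a group correlated at 0.927 to 0.989 across tested probes, except among SI labelled males. There mice 4 and 7 correlated at 0.833. The array of SI labelled male mouse 4 had 38.8% of spots well above background. The other SI labelled males had 43.2% to 47.7% and the SS labelled males 44% to 45%. Mouse 4 also had the highest log2 summed signal of erythroid markers, 11.31. The cause was not tested. Calls of member probes that change without SI labelled male mouse 4 are given both ways. With 1 array per mouse, p-values measure the spread between mice, and the number of arrays limits the precision.

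Promoter sequence was found for 5 of the 7 members in RefSeq's mouse annotation (GRCm38.p6). The 250 bases before the annotated start are shown for C3 and Cfp, whose levels moved most alike among the members, and for C5ar2, whose level differed most between the slides; capitals mark matches to a C/EBP motif (TTNNGCAA) or an NF-kB motif (GGG and CC with any 5 bases between them) on either strand. The windows are chr17:57228137-57228386 (C3), chrX:20931556-20931805 (Cfp) and chr7:16244155-16244404 (C5ar2, the outer of 2 annotated starts), each read from the minus strand, 5′ to 3′.
C3: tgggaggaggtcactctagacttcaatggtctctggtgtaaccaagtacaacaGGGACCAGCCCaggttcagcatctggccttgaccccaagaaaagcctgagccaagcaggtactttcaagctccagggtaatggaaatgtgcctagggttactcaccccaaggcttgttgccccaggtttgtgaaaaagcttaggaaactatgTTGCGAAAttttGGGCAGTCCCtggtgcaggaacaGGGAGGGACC
Cfp: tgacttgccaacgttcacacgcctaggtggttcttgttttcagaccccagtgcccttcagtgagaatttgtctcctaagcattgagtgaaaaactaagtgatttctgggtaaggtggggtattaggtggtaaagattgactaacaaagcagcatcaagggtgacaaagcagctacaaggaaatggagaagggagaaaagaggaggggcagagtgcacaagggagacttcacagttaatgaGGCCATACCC
C5ar2: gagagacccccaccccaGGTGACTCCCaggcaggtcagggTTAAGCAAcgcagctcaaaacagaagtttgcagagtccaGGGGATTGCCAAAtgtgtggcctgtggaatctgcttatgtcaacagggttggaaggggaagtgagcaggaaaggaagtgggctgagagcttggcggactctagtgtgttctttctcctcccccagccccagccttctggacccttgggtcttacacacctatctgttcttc
The C3 window holds 1 C/EBP match, 45 to 38 bases before the start, and 5 NF-kB matches, counting strands separately and with overlaps. The Cfp window holds 0 and 1, and the C5ar2 window 2 and 2, of which 1 pair overlaps. A C/EBP match occurs in 9.56% and an NF-kB match in 45.8% of 32851 RefSeq windows of this length, so the NF-kB letters are common. The C3ar1 window has 1 NF-kB match and no C/EBP match, and the C5ar1 window has neither; these matches are descriptions of the letters.

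Levels are log2 processed signals minus the array's 75th percentile over the 14526 probes well above background on all arrays, so that 0 is that percentile. They compare mice for 1 probe and do not rank probes against each other. Differences are SS minus SI on the log2 scale with a limma p adjusted by Benjamini-Hochberg over the 24045 tested probes and called at 0.05. The comparison of all mice pools the within-slide comparisons, so it is not a separate set of mice.

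C3 mRNA was lower in SS than in SI mice on the labelled female slide, 3-fold, and was the 1 member of 6 tested that passed there. In SI labelled females its level was 2.82 in mouse 27 and 2.36 in mouse 28. In SS labelled females it was 1.5 in mouse 22, 1.04 in mouse 20, 0.43 in mouse 23 and 1.07 in mouse 21. Both SI arrays lay above all 4 SS arrays. The log2 difference was -1.58 ± 0.34 (SE, limma adjusted p = 0.0286; 2 against 4 mice), and the exact permutation p was 0.0667, the smallest that these numbers of mice allow, two-sided. Of all tested probes 4% passed on this slide, 3.19% higher and 0.815% lower in SS. Without overlap SS lay below SI for 18.1% of probes, and for 34.8% the groups did not overlap either way (SS above for 16.6%), so a separation of the arrays alone was common there.

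The labelled males did not show that separation, which 9.58% of tested probes showed on their slide (SS lower for 1.17%, SS higher for 8.41%). Their C3 level was 1.94 in SI mouse 6, 0.94 in SI mouse 4, 1.75 in SI mouse 7 and 1.92 in SI mouse 5. The SS mice read 1.3 in mouse 1, 1.44 in mouse 2, 1.04 in mouse 3 and 1.45 in mouse 01b. The 3 SI mice other than mouse 4 lay above every SS mouse, and mouse 4 lay below them all. The difference was -0.33 ± 0.28 (limma adjusted p = 0.446, exact permutation p = 0.286, where 0.0286 is the smallest possible). Without mouse 4 it was -0.56 (limma adjusted p = 0.0735), in a comparison where 39.3% of all tested probes then passed.

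Over all mice the C3 difference was -0.83 ± 0.26 (limma adjusted p = 0.0754; exact permutation p = 0.0105 within slides). No member passed among all mice, where 7.98% of tested probes did, 7.41% higher and 0.57% lower in SS. Without SI labelled male mouse 4 the C3 difference passed, at -1.01 (limma adjusted p = 0.00946), as did Cfp at -0.71 (0.0124), and 16% of all tested probes then passed. With quantile normalization C3 also passed, at -0.94 (0.0431). The difference between the slides in the SS effect on C3 was -1.25 ± 0.44 and did not pass (limma adjusted p = 0.313; 0.0457% of tested probes passed), so the effect is not shown to differ between slides.

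The second C3 probe gave like values. Its SI labelled female levels were 2.13 and 1.74, against -0.12 to 0.84 in SS labelled females, a difference of -1.57 ± 0.29 (limma adjusted p = 0.0209). On the labelled male slide it differed by -0.25 ± 0.23 (adjusted p = 0.49) and over all mice by -0.78 (0.0721). The call of the brighter probe on the labelled female slide was lost with the 75th percentile of all probes (-1.42, limma adjusted p = 0.0722), with no filter on dim probes (0.102) and in the deposited log2 table (-0.88, 0.109). It was also lost without SI mouse 27 (-1.35, 0.176), SI mouse 28 (-1.82, 0.0958) or SS mouse 20 (-1.59, 0.063), 23 (-1.39, 0.0858) or 21 (-1.61, 0.0616); C3 stayed lower in SS each time.

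**Figure D1:**
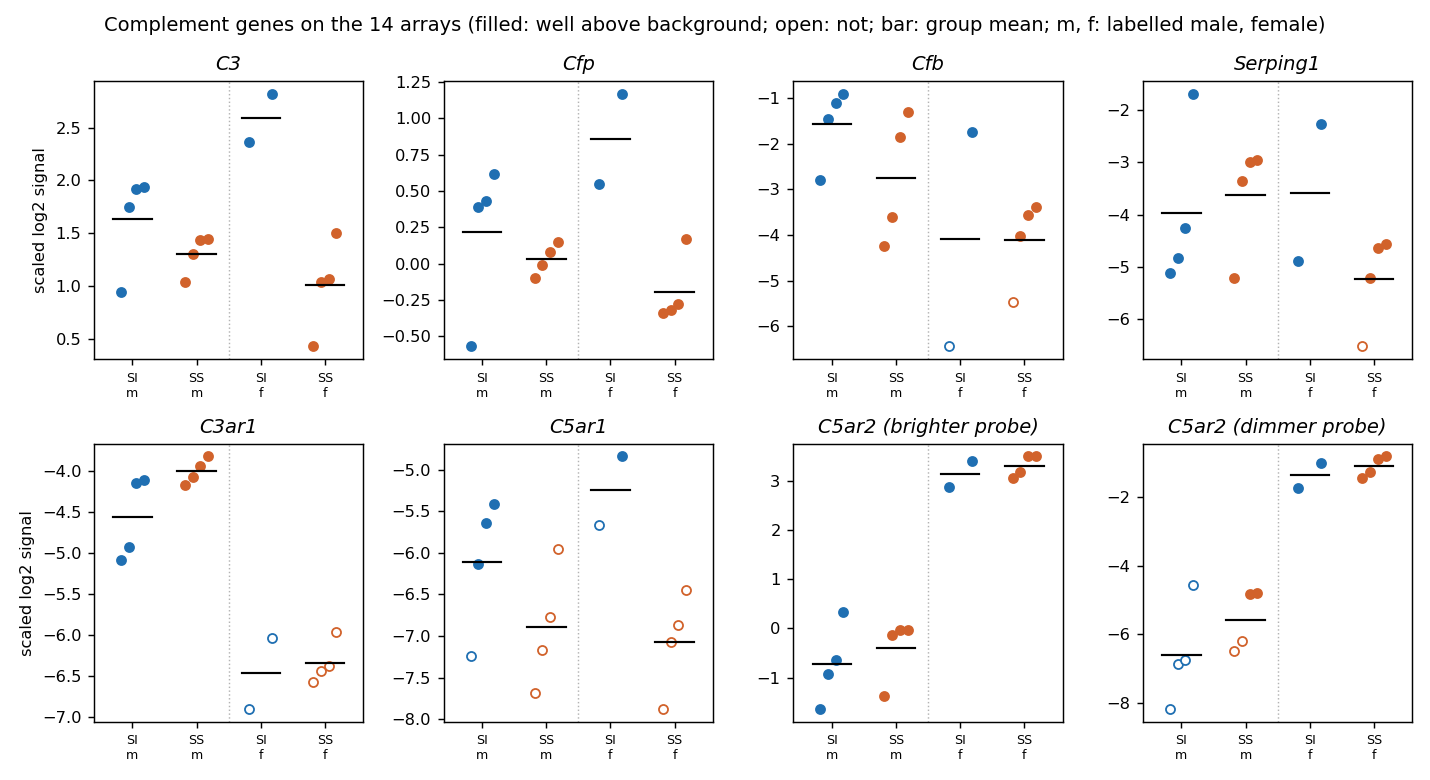
Scaled log2 signal (vertical axis) of each complement gene on each of the 14 arrays, by stress group (SI, SS) and sex label (m, f), with a bar at the group mean; filled points are well above background and open points are not. C3 is highest in the 2 SI labelled females, C5ar2 is 13.6-fold brighter on the labelled female slide with its brighter probe, and C3ar1 is open on all 6 arrays of that slide.

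Cfp, which encodes properdin, had the pattern most like that of C3 among the members but did not pass on either slide. Its level was 1.17 and 0.55 in SI labelled female mice 27 and 28. The SS labelled females read 0.17 in mouse 22, -0.32 in mouse 20, -0.34 in mouse 23 and -0.28 in mouse 21. The arrays again did not overlap, and SS mouse 22 lay apart from the other 3 SS mice. The difference was -1.05 ± 0.32, a fold of 2.07 (limma adjusted p = 0.0902; exact permutation p = 0.0667, the smallest possible). Without SI labelled male mouse 4, which enters this fit through the shared spread, the same difference had a limma adjusted p of 0.0172. In that fit 7.99% of all tested probes passed.

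In labelled males Cfp read 0.43, -0.57, 0.39 and 0.62 in SI mice 6, 4, 7 and 5, and -0.01, 0.08, -0.1 and 0.15 in SS mice 1, 2, 3 and 01b. Mouse 4 again lay below all others and the rest of the SI mice above all SS mice, as for C3. The difference was -0.19 ± 0.26 with mouse 4 (limma adjusted p = 0.656) and -0.45 without mouse 4 (0.0796), where 39.3% of all tested probes passed. Over all mice it was -0.53 ± 0.23 (limma adjusted p = 0.198; exact permutation p = 0.0343). The difference between slides was -0.86 ± 0.41 (adjusted p = 0.406).

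Likeness of pattern was measured as the root mean square difference of slide-centred log2 levels over the 14 arrays, among 11506 other genes. C3 and Cfp differed by 0.23, the smallest value among the 15 pairs of tested members; their own root mean square levels were 0.6 and 0.45. Outside the members, the genes nearest C3 were Mocos at 0.15, B430306N03Rik at 0.16 and Sqor at 0.17. Nearest Cfp were Lgals3, which encodes the lectin galectin-3, Svil, which encodes the actin-binding supervillin, and Diaph2, which encodes a formin, each at 0.15. These values describe the shared shape on these arrays.

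Neutrophil markers moved the same way as C3 and Cfp on the labelled female slide, and their part in the result was not tested. There 9 of 14 tested neutrophil markers were called lower in SS, where 0.815% of all tested probes were. All 14 lay below 0, with a median of -2.35, against -0.11 for all tested probes. Among them were the granule genes Ngp (-4.85), Camp (-4.63) and Lcn2 (-4.1). Their log2 summed signal ranged from 8.93 to 9.53 in SI and from 7.27 to 7.59 in SS labelled females. In labelled males it ranged from 7.39 to 8.02 in SI and from 8.01 to 8.17 in SS, nearly the reverse order, with 0 of 14 called and a median of 0.26. The count of 9 fell to 2 without SI mouse 28, to 5 without SS mouse 23, and to 6 without SS mouse 20 or 21. Without SI labelled male mouse 4 it was 12, and 6 of 14 were called lower over all mice, against 0 with it. Of all tested probes 7.99% then passed on the labelled female slide and 16% over all mice.

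Monocyte markers overlapped more. Their log2 summed signal was 4.89 and 5.96 in the SI and 4.15 to 4.92 in the SS labelled females, 0 of 13 passed on that slide and the median was -0.76. The median was -0.23 without SI mouse 27 and -1.39 without SI mouse 28, and 1 of 13 passed without SI labelled male mouse 4. In labelled males the monocyte sum was 4.88 to 5.27 in SI and 4.79 to 5.15 in SS. NK cell markers also lay lower in SS on the labelled female slide: 7 of 7 tested were below 0, 0 of 7 passed and the median was -1.1. Their summed signal was 4.23 and 4.33 in SI and 2.22 to 3.27 in SS, with no overlap, and its part in the result was not tested. Erythroid sums on that slide did not overlap either, at 10.19 and 10.94 in SI and 8.93 to 9.98 in SS, with 6 of 7 markers below 0 and 1 of 7 called, higher in SS. B cell sums were 3.76 and 4.74 in SI and 4.77 to 5.18 in SS, with 0 of 8 called. Platelet markers went the other way: 15 of 15 were called higher in SS over all mice, where 7.41% of all tested probes were. On the labelled female slide 12 of 15 were called higher, where 3.19% of all tested probes were, and the median was 1.8. The count was 0 of 15 when an SS mouse of that slide was left out. The median was 1.93 without SI mouse 27 and 1.68 without SI mouse 28. In labelled males 0 of 15 were called, though all 15 lay above 0. Without SI labelled male mouse 4, 15 of 15 were called higher there, while 39.3% of all tested probes passed. Of the 6 liver markers, Alb, Ttr, Serpina1c and Apoh were well above background on no array, Apoa1 on 2 and Fgb on 11. Of the 5 tissue macrophage markers Vsig4, Cd5l and Cd163 were on none, Timd4 on 1 and Marco on 9. In RNA from mixed blood cells, fewer cells of a type and less RNA per cell cannot be told apart.

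**Figure D2:**
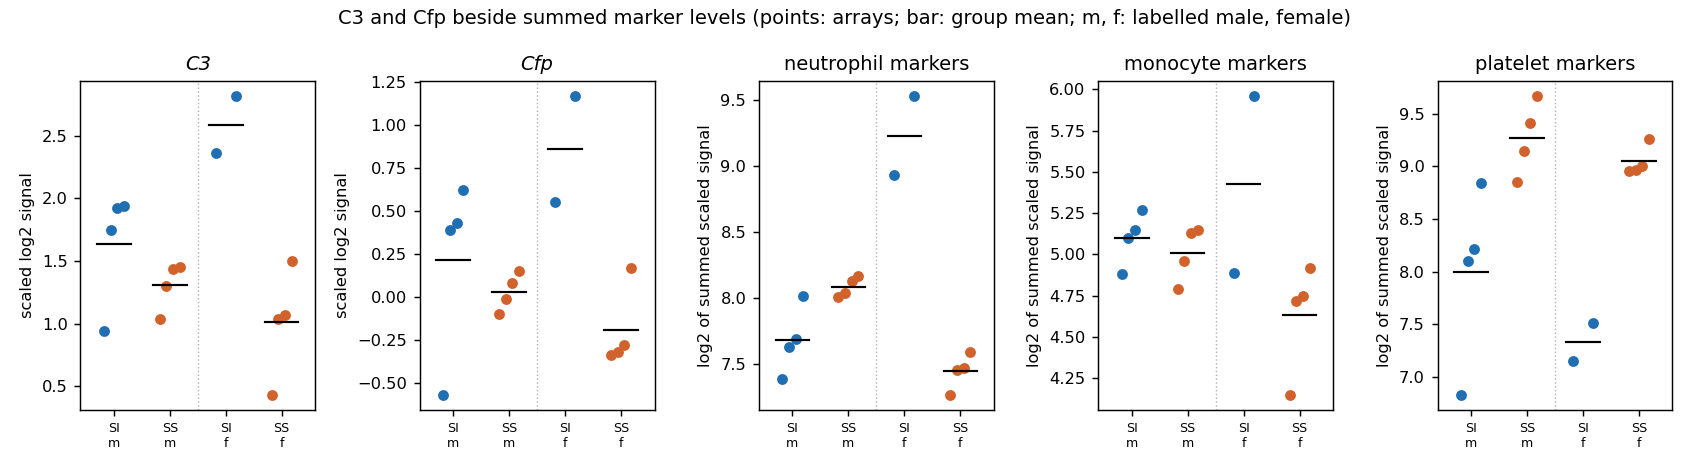
Scaled log2 signal of C3 and Cfp (the 2 left panels) and log2 of the summed scaled signal of the neutrophil, monocyte and platelet marker lists (the other 3 panels) on each array, by stress group and sex label (m, f), with a bar at the group mean. In labelled females C3, Cfp and the neutrophil sum (8.93 to 9.53 in SI, 7.27 to 7.59 in SS) all lie higher in SI; in labelled males the neutrophil sum lies higher in SS, apart from an overlap at 8.01 and 8.02.

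Cfb, the catalytic subunit of the alternative pathway convertase once cleaved, varied widely and showed no call. It was well above background on 12 arrays, all but SI labelled female 28 and SS labelled female 23. SI labelled males read -1.46, -2.79, -0.9 and -1.1 (mice 6, 4, 7 and 5), and SS labelled males -3.61, -1.3, -4.25 and -1.86 (mice 1, 2, 3 and 01b). SS mice 1 and 3 were the lowest of the slide and SS mice 2 and 01b lay among the SI mice. The difference was -1.19 ± 0.92 (limma adjusted p = 0.412; exact permutation p = 0.2).

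In labelled females Cfb read -1.73 in SI mouse 27 and -6.44 in SI mouse 28, with the SS mice between them at -4.01 (22), -3.39 (20), -5.47 (23) and -3.57 (21). The difference was -0.02 ± 1.13, with the SI mice at opposite ends of the slide; it was 2.33 without mouse 27 and -2.38 without mouse 28, and it turned positive under 5 alternatives, among them leaving out mouse 27 or SS mouse 23 (0.43). Over all mice it was -0.73 ± 0.71 (limma adjusted p = 0.583). The genes nearest Cfb were Csta3, Clec4n, a lectin receptor, and Ctsl, a lysosomal protease, each at 0.74 against its own 1.33.

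Serping1 encodes the C1 inhibitor, which blocks the C1 and lectin pathway proteases and also those of the contact system. Its brighter probe was well above background on 13 arrays, all but SS labelled female 22. In labelled males it read -4.25, -1.68, -4.83 and -5.12 in SI mice 6, 4, 7 and 5 and -3, -3.35, -5.22 and -2.95 in SS mice 1, 2, 3 and 01b. SI mouse 4 was the highest array of the slide and the other 3 SI mice were low along with SS mouse 3. The difference was 0.34 ± 0.81 (limma adjusted p = 0.803), and 1.1 without SI mouse 4 (0.203).

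In labelled females Serping1 read -4.89 in SI mouse 27, -2.27 in SI mouse 28, and -6.53, -4.56, -5.22 and -4.65 in SS mice 22, 20, 23 and 21. Mouse 28 stood above the rest, and mouse 27 lay inside the SS range. The difference was -1.66 ± 0.99, with a wider error than that of C3 (limma adjusted p = 0.47; exact permutation p = 0.267). Over all mice it was -0.46 ± 0.66 (adjusted p = 0.717), and 0.14 without SI mouse 28. The nearest gene was Bdnf, a neurotrophin, at 0.32 against its own 1.21; Pga5 and Fam83f followed at 0.36 and 0.37. The other Serping1 probe was well above background only in SI labelled male mouse 7.

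**Figure D3:**
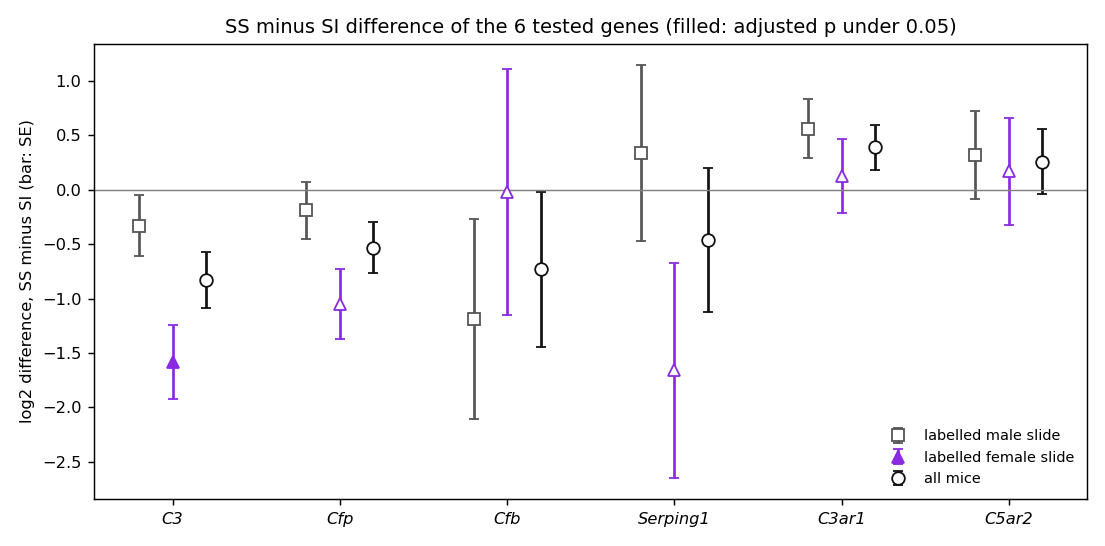
Log2 difference, SS minus SI (vertical axis), of the 6 tested complement genes on the labelled male slide (squares), the labelled female slide (triangles) and over all mice (circles), with bars of 1 standard error; filled symbols have a limma adjusted p under 0.05. The triangle of C3, at -1.58, is the filled one; the bars of Cfb and Serping1 are the widest.

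No tested anaphylatoxin receptor was called between stress groups, and the brighter probe of C5ar2 was called between slides. C5ar2, a C5a receptor that does not couple to G proteins, was well above background on all 14 arrays with its brighter probe. In labelled males it read -0.64, 0.33, -1.64 and -0.92 in SI mice 6, 4, 7 and 5 and -0.13, -0.04, -1.38 and -0.04 in SS mice 1, 2, 3 and 01b. In labelled females it read 3.41 and 2.87 in SI mice 27 and 28, and 3.05, 3.5, 3.18 and 3.5 in SS mice 22, 20, 23 and 21. Within a slide the groups overlapped. The SS minus SI difference was 0.32 ± 0.4 on the labelled male slide (limma adjusted p = 0.612), 0.17 ± 0.49 on the labelled female slide (0.917) and 0.26 ± 0.3 over all mice (0.646; without SI labelled male mouse 4 it was 0.45, 0.254).

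Between the slides every labelled female array was brighter for C5ar2 than every labelled male array, by 3.77 ± 0.3 on the log2 scale, a fold of 13.6 (labelled female minus labelled male slide, stress group as a term, limma adjusted p = 1.57e-07). The comparison of slides was added after the data were seen. Its limma p-values measure the spread between mice within a slide and not that between slides. The dimmer C5ar2 probe ranged from -1.73 to -0.81 on the labelled female slide and from -8.19 to -4.58 on the other, where it was well above background only in SS mice 1 and 01b. It passed the filter mainly through the labelled female slide, so no slide test is given for it. Its SS minus SI difference was 0.71 over all mice (limma adjusted p = 0.422).

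C3ar1, the receptor of C3a, went the opposite way between the slides. Its probe exceeded background in 8 of 8 labelled males, at -5.08 to -3.82, and in 0 of 6 labelled females, at -6.9 to -5.96. Labelled males were 4.27-fold brighter by the ratio of means. Each such ratio sets the brighter group's mean against, per array, the higher of the dim signal and the lowest signal well above background. It is not a lower bound, since brighter signals can also miss the mark. The dimmer C5ar2 probe had a processed signal of 15.5 in SI labelled male mouse 4 and was not well above background. The C3ar1 probe passed the filter only through the labelled male slide, so no slide test is given for it.

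The slide differences stand against a wide background: 38% of tested probes were called between the slides, 11.5% higher and 26.6% lower on the labelled female slide, and 17.5% did not overlap. Of the calls 30.2% were higher, but 57.6% with the 75th percentile of all probes and 50.1% with quantile normalization, while C5ar2 stayed higher under both. Of all tested probes 4.55% lay at least as far from 0 as the brighter C5ar2 probe. C3, Cfp, Cfb and Serping1 were not called between slides (C3 0.2, adjusted p = 0.583; Cfb -1.82, 0.0566).

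Within the labelled males C3ar1 read -4.92, -4.11, -5.08 and -4.15 in SI mice 6, 4, 7 and 5, and -4.17, -3.94, -4.07 and -3.82 in SS mice 1, 2, 3 and 01b. SI mice 6 and 7 were lower than the rest and the other 2 SI mice lay at the SS level. The difference was 0.56 ± 0.27 (limma adjusted p = 0.227; exact permutation p = 0.0857) and 0.72 without SI mouse 4 (0.0523). In that comparison 0 probes passed at the threshold and 5717 had an unadjusted limma p under 0.05. Without mouse 4, 9439 probes passed, 39.3% of those tested, and still no member did. Over all mice the C3ar1 difference was 0.39 ± 0.21 (limma adjusted p = 0.326), which includes labelled female signals of which 0 of 6 were above background.

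The genes nearest C5ar2 in slide-centred pattern were Npr2 at 0.21, a natriuretic peptide receptor, and Tex44 and Rbp3 at 0.22, against its own 0.52. Nearest C3ar1 were Crebbp, an acetyltransferase that serves as a transcriptional coactivator, at 0.15, Trp63 at 0.16 and Arhgap17 at 0.17, against its own 0.39. C5ar2 and C3ar1 differed from each other by 0.53. The C3ar1 pattern includes the labelled female slide, where 0 of 6 of its signals were above background.

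C5ar1, the G protein-coupled receptor of C5a that is known from neutrophils and monocytes, has 1 probe on the array, and it was well above background on 4 of 6 SI and 0 of 8 SS arrays. The SI labelled males read -6.14, -7.24, -5.41 and -5.64 (mice 6, 4, 7 and 5, of which mouse 4 was not above background), and the SS labelled males -7.17, -7.69, -6.77 and -5.96 (mice 1, 2, 3 and 01b). SI labelled female mouse 27 read -4.84, above background, and mouse 28 -5.66, not above it; the SS labelled females read -7.07, -6.87, -6.45 and -7.88 (mice 22, 20, 23 and 21). The groups overlapped in labelled males and not in labelled females. On that slide SS lay below SI without overlap for 18.1% of tested probes, and 5 of the 6 C5ar1 signals were not above background. Among labelled males the log2 percentile subtracted in scaling was highest in SI mice 6, 7 and 5, at 10.11, 10.39 and 9.9. Those were the arrays of that slide with C5ar1 above background. The percentile was 8.53 in SI mouse 4 and 9.03 to 9.87 in the SS labelled males. In labelled females it was 9.21 in SI mouse 27 and 9.89 in SS mouse 22. The part of array brightness in the detection split was not tested, nor was the share of probes with a like split.

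By the ratio of means used for C3ar1, C5ar1 was 1.68-fold brighter in SI than in SS labelled males and 3.44-fold in labelled females. Over all mice it was 2.18-fold brighter in SI. These ratios are not lower bounds, since 0 of 8 SS signals were above background and brighter signals can also miss the mark. The SI means also include signals not above background, those of labelled male mouse 4 and labelled female mouse 28. When all 55681 probes were fitted, C5ar1 did not pass: the SS minus SI difference was -1.2 ± 0.37 over all mice (limma adjusted p = 0.168), -0.79 on the labelled male slide (0.433) and -1.82 on the labelled female slide (0.202). Its probe is annotated to 1 transcript record of the gene.

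Across the 6 tested members the median SS minus SI difference was -0.5 over all mice against -0.04 for all tested probes, 0.07 against 0.09 in labelled males, and -0.54 against -0.11 in labelled females. Over all mice 2 members were above and 4 below 0. In labelled females the C3ar1 value among them rests on signals not above background. In all, 27 exact permutation tests were computed, 24 on the 8 tested member probes and 3 on C5ar1, and p-values of the former are printed unadjusted beside the limma values adjusted over all probes. Those of C5ar1 are not given, since 10 of its 14 signals were not above background.

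Among 52 other complement genes on the array, of 54 listed, 22 were tested and 17 were well above background with no probe on any array. The latter include the mannose-binding lectins Mbl1 and Mbl2, the terminal components C8a, C8b and C9, and the regulator Cfi. Hc, which encodes C5, was above background on 1 array. Over all mice 3 of the 22 passed, all higher in SS, where 7.41% of all tested probes were called higher, and the median of the 22 was -0.02. Among the 3, Colec11 met the filter only through its SS arrays. Without SI labelled male mouse 4, 4 of the 22 rose and 2 fell, while 16% of all tested probes passed.

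The 3 that passed over all mice were Pros1, Clu and Colec11. Pros1 encodes protein S, a coagulation cofactor that also binds the regulator C4b-binding protein; its level ran from -1.18 to 0.19 in SI and 0.34 to 1.39 in SS labelled males. In labelled females it ran from -1.45 to -0.91 and from 0.25 to 0.65. SS lay above SI on both slides, with a difference of 1.34 ± 0.24 (limma adjusted p = 0.00471). Of all tested probes, 8.41% showed such a separation on the labelled male slide and 16.6% on the labelled female slide. Clu encodes clusterin, an inhibitor of the membrane attack complex, and rose by 1.29 ± 0.25 (0.0057).

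Colec11, a lectin that starts the lectin pathway, rose by 1.5 ± 0.3 over all mice (limma adjusted p = 0.00597), and was well above background on 3 of 4 SI and 4 of 4 SS labelled male arrays and on 0 of 2 SI and 4 of 4 SS labelled female arrays. With normexp its difference was 0.53 and lost the call (0.232). The Colec11 probe met the filter through the SS arrays, which favours a rise in SS, so its call is given only as a description. Platelet markers rose over the same mice: their log2 summed signal was 6.83 to 8.84 in SI and 8.85 to 9.67 in SS labelled males, and 7.15 to 7.51 and 8.96 to 9.26 in labelled females. Their part in these 3 rises was not tested.

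On the labelled female slide 2 of the 22 passed, where 4% of all tested probes did. Pros1 was higher in SS by 1.61 ± 0.38 (limma adjusted p = 0.0366). C1rl, which encodes a protease related to C1r, was lower, at -3.48 and -3.35 in SI against -6.56 to -4.89 in SS, a difference of -2.29 ± 0.44 (0.0217). Only 2 of the 4 SS arrays were above background for C1rl. Its difference in labelled males was 0.51 ± 0.36 (0.366), and the difference between slides, -2.8, did not pass (0.112). Both calls were lost without SI mouse 27 (Pros1 1.88, adjusted p = 0.103; C1rl -2.35, 0.0903), SI mouse 28 (1.34, 0.225; -2.23, 0.112), or SS mouse 20 (1.67, 0.0693; -2.42, 0.0514), 23 (1.53, 0.104; -2.01, 0.069) or 21 (1.66, 0.0697; -2.18, 0.057), and that of Pros1 without SS mouse 22 (1.56, 0.0787). The Pros1 call was also lost without SI labelled male mouse 5 (0.055) or SS labelled male mouse 2 (0.0562) or 01b (0.0557). With normexp, no filter or the deposited table neither call held (Pros1 1.35, 1.61 and 2.63, C1rl -0.87, -2.29 and -2.07). That of Pros1 was also lost with the array row (0.0524). Without SI labelled male mouse 4, 4 of the 22 rose and 1 fell, while 7.99% of all tested probes passed on this slide.

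**Figure D4:**
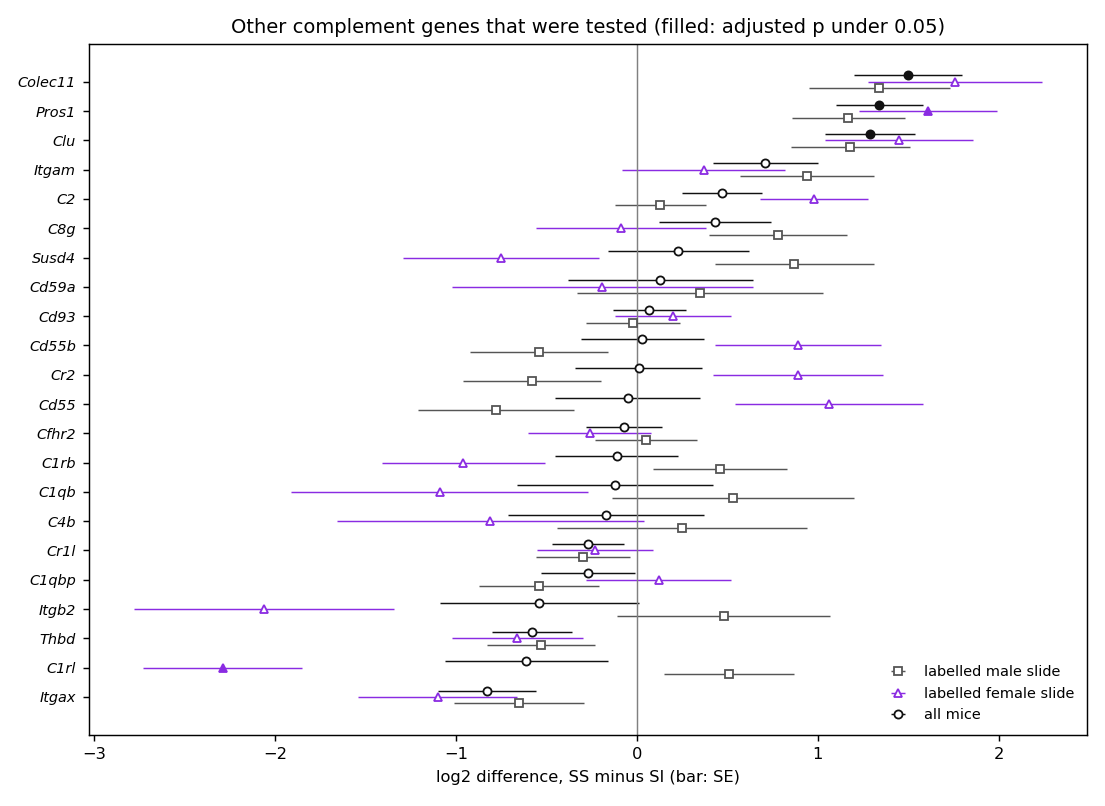
Log2 difference, SS minus SI (horizontal axis), of the 22 other complement genes that were tested, ordered by the difference over all mice (circles), with the labelled male slide (squares) and the labelled female slide (triangles); bars are 1 standard error and filled symbols have a limma adjusted p under 0.05. Colec11, Pros1 and Clu are filled over all mice, at 1.29 to 1.5, and Pros1 and C1rl on the labelled female slide.

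C1qb and C4b of the classical pathway did not pass. C1qb, a chain of the recognition protein C1q, differed by -0.12 and C4b by -0.17 over all mice (limma adjusted p = 0.92 and 0.878). Of the other C1q chains, C1qa was above background on 4 arrays and C1qc on 2. Factor D (Cfd), the protease that cleaves factor B, was above background on 3 arrays, all of SI mice.

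Cd55, Cd59a and Cr2 did not pass either. Cd55, which speeds convertase decay, differed by -0.05 over all mice, and Cd59a, which blocks the membrane attack complex, by 0.13 (limma adjusted p = 0.958 and 0.904). Cr2, the B cell receptor of C3d, differed by 0.01 (0.99). Cd55 and Cr2 had values of opposite sign on the slides, -0.78 and -0.58 in labelled males and 1.06 and 0.89 in labelled females, and the difference between slides did not pass for either (0.323 and 0.35).

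The integrin chains of the C3 receptors gave mixed values. Itgam, the alpha chain of complement receptor 3, differed by 0.71 ± 0.29 over all mice (limma adjusted p = 0.171), Itgax, that of complement receptor 4, by -0.83 ± 0.27 (0.0877), and their shared beta chain Itgb2 by -0.54 ± 0.55 (0.602). Itgb2 read 2.05 and 6.05 in the 2 SI labelled females, far apart, and 1.95 to 2.07 in the SS labelled females. Between slides Itgam differed by -3.91, lower on the labelled female slide (limma adjusted p = 7.26e-08, from the spread between mice within a slide). Thbd, the endothelial and monocyte thrombomodulin that also limits complement, differed by -0.58 (0.147).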

How the data were processed

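The scanner files of 14 one-colour Agilent arrays were used, 1 array per mouse. The deposited processed signals are intensities, which per the file headers were background-subtracted in Agilent Feature Extraction (version 10.7.3.1; the submitters' processing notes name 9.1). The authors also deposited a log2 value table; how it was normalized is not stated there. Of 62976 spots 3671 were controls and left out; outlier spots (113 to 174 per array) were left out and no spot was saturated. Spots of a probe were averaged as log2 signal. Symbols came from RefSeq (GRCm38.p6) for 26425 of 31063 RefSeq-type identifiers, and the brightest tested probe stands for a gene.

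Within-slide differences and their difference came from a fit of 4 groups, the comparisons of all mice and of the slides from a fit of slide and stress (limma 3.58.1, R 4.3.3, data.table in version 1.17.8), two-sided. The code was tested on simulated data. Members, gene lists and tests were chosen with earlier results of these data known. Named genes are the members, the other complement genes that passed in a comparison of SS with SI, the 3 largest rises and falls among those over all mice, 11 reference genes of the pathway and the 3 nearest genes of each tested member; 1 further reference gene is not reported here. Alternatives were other scalings, normexp (offset 50), no filter, the deposited table, the array row, other probes, each slide alone and each array left out.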

Additional observations from a re-analysis of the deposited data

Results flagged for a closer look

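Of 72 groups of 4 mice, 7 held a mouse whose gap to its nearest neighbour took more of the group's range than Dixon's 95% limit allows; chance gives about 1 in 20 groups. Among the members, Cfp read 0.17 in SS labelled female mouse 22 (the others -0.34 to -0.28), and C5ar2 read -1.38 in SS labelled male mouse 3 (the others -0.13 to -0.04). Cr2 in SS labelled female mouse 23 read 1.12 (others 0.58 to 0.61). Itgb2 read 2.07 in SS labelled female mouse 22 (others 1.95 to 1.97). C1qa at -8.61 and C1qc at -8.6 in SS labelled female mouse 22, and Hc at -7.23 in SI labelled male mouse 4, were not above background.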

How the results depend on the processing

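No paired analysis was possible because the groups share no replicate numbers. Of the members' differences under alternatives, 607 kept their direction and side of the threshold, 6 gained and 9 lost a call, and 20 changed sign. The members called over all mice numbered 1 with quantile normalization and 0 to 2 without each array; on the labelled female slide 0 with the 75th percentile of all probes, no filter or the deposited table, and 0 to 2 without each array; between slides 1 with normexp, against 2, of which C3ar1 passed the filter only through the labelled male slide. The cause was not tested.

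Probes called over all mice were 1244 with normexp, 1127 with no filter and 1491 to 3857 without each array, against 1919. On the labelled female slide they were 414 with normexp, 52 with no filter, 461 in the deposited table, 544 with the array row and 1705 with that slide alone, and 43 to 1920 without each array, against 963. On the labelled male slide they were 2 with either other scaling, 174 in the deposited table and 0 to 9439 without each array, against 0; for the difference between slides 17 with quantile normalization, 36 in the deposited table and 1 to 663 without each array, against 11; between slides 3625 with normexp, against 9147.

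Signs turned only for differences that were not called. In the deposited table the slide difference was -0.1 for C3 and -0.18 for Cfp. On the labelled female slide C3ar1 was -0.34 with normexp, and Cfb was 0.14 with the 75th percentile of all probes, 0.29 with quantile normalization and 0.03 in the deposited table. The difference between slides was 0.15 for C3ar1 with quantile normalization and 0.19 for C5ar2 with the 75th percentile of all probes. Without each array in turn, slide differences ranged from -0.01 to 0.36 (C3) and -0.06 to 0.18 (Cfp). Labelled female values ranged from -0.31 to 0.57 (C3ar1), -0.1 to 0.44 (C5ar2) and -2.38 to 2.33 (Cfb). Differences between slides ranged from -0.87 to 0 (C3ar1), -0.5 to 0.15 (C5ar2) and -1.18 to 3.52 (Cfb). Serping1 ranged from -0.75 to 0.14 over all mice and from -0.04 to 1.1 in labelled males.

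The 75th percentile of all probes moved the median of all tested probes from -0.11 to 0.05 on the labelled female slide, from 0.09 to -0.09 on the labelled male slide and from -0.07 to 0.34 between slides. Without SS labelled male mouse 3 or SI labelled female mouse 27 the slide difference of Cfb passed (-2.15, limma adjusted p = 0.0281, and -2.36, 0.0202).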
